A study of Mus musculus with 8 samples.

Results

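The genes of intraflagellar transport and of Bardet-Biedl syndrome were followed through photoreceptor degeneration in the mouse retina. Members were the protein-coding genes whose symbol begins with Ift or Bbs and a number, together with 15 named genes of the same complexes that carry other symbols. This gave 37 members among 57010 gene identifiers, and all 37 passed the filter on low counts. They comprised 6 genes of the IFT-A complex, 12 of IFT-B1, 6 of IFT-B2, 8 of the BBSome, 3 chaperonin-like Bardet-Biedl genes, the GTPase gene Arl6 and the regulator gene Lztfl1.

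RNA-seq was performed on whole retinas, with 1 retina in each of 8 libraries. Wild-type retinas were collected at postnatal day 15 (WT P15), and rd10 retinas at postnatal days 15, 18 and 21 (rd10 P15, rd10 P18 and rd10 P21), with 2 libraries in each group. The study's methods describe the rd10 mice as homozygous and the controls as wild-type littermates. rd10 mice carry a mutation in Pde6b, a subunit of the rod phosphodiesterase, and lose their rods. Wild-type retinas older than P15 were not analysed here, so that at P18 and P21 genotype and age cannot be told apart. In whole retina, fewer cells of a type and less RNA per cell cannot be told apart either.

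The photoreceptor outer segment is a modified primary cilium, joined to the cell body by a narrow connecting cilium. Intraflagellar transport (IFT) trains, assembled from the IFT-A and IFT-B complexes, carry cargo along the axoneme, kinesin-2 drawing them towards the tip and dynein-2 back to the base. The BBSome is a coat-like complex that rides on these trains and moves membrane proteins out of cilia. The GTPase Arl6 recruits it to membranes, the chaperonin-like proteins help to assemble it, and Lztfl1 restrains its entry into cilia. Loss of many of these genes causes retinal degeneration, often with defects of other ciliated organs.

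Promoter sequences were examined for the X-box, the paired element bound by RFX transcription factors, which regulate ciliary genes. A promoter from RefSeq (GRCm38.p6, 250 bases before to 50 bases after the gene start) was matched for 33 of the 37 members. The letters GTTNCC followed by GGNAAC, 0 to 3 bases apart, read the same on both strands and were present in 5 of the 33 members (15.2%), against 0.936% of 27025 genes and 0.804% of 32851 promoters. The 5 were Bbs7, Ift57, Lztfl1, Ttc26 and Ttc30a2, and Lztfl1 held 2 such pairs. The single arm GTTGCC, on either strand and often part of a pair, was present in 13 members (39.4%), against 14.1% of genes. By contrast, TAATCC, the core recognised by the photoreceptor factor CRX, was present in 2 members (6.06%), against 8.14% of genes. Such matches describe the letters in these windows only. The promoters of Bbs7 (chr3:36613340-36613639, minus strand), Lztfl1 (chr9:123717576-123717875, minus strand), Ttc26 (chr6:38381274-38381573, plus strand) and Ift57 (chr16:49699044-49699343, plus strand) are shown as examples that hold a pair. Bbs9 and Arl6, with differences of like size described below, had neither a pair nor a single arm. Whether these letters go with the differences was not tested. Capitals mark the X-box pairs and single arms.
Bbs7: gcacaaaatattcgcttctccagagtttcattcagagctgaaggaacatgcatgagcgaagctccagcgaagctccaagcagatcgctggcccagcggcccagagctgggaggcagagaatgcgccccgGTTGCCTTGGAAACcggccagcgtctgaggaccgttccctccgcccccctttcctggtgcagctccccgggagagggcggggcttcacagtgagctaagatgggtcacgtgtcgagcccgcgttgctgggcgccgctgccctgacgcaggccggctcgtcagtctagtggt
Lztfl1: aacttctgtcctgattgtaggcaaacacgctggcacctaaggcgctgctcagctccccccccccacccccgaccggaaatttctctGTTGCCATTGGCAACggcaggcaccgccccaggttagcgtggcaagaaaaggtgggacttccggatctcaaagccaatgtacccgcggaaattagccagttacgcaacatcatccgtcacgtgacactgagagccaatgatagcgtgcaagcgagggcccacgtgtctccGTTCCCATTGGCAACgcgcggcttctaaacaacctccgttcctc
Ttc26: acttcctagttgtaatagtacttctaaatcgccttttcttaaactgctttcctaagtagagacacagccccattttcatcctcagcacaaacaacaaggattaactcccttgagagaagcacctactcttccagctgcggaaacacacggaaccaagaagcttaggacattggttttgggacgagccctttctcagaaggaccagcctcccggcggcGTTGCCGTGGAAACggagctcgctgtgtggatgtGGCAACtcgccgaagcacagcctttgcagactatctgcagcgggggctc
Ift57: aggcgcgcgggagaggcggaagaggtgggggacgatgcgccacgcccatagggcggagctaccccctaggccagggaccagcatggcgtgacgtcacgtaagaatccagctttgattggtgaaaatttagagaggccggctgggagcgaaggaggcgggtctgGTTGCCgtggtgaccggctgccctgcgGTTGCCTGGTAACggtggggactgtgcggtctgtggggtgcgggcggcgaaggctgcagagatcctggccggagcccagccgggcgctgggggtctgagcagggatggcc

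Total counts ranged from 28076947 to 33724562 per library (median 31448681.5). Apart from Ttc30a2, each member had between 223 and 6517 counts in every library. Summed over the members, the level was between 1658 and 2212 CPM (counts scaled to library size and TMM factors). Pde6b, the mutated gene, was at 2335 and 2128 CPM in WT P15 and between 964 and 1799 CPM in the rd10 libraries. Counts of 4 Y-linked genes summed to between 5530 and 7193 in both rd10 P15 libraries, rd10 P18 replicate 1 and rd10 P21 replicate 1, and to between 3 and 19 in the other libraries. At P15, therefore, genotype and sex cannot be told apart. In rd10 P18 and rd10 P21 only replicate 1 was high, so comparisons of these groups with either P15 group were not balanced by sex. The part of sex in these differences was not tested.

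One library stood apart. In rd10 P18 replicate 1, long transcripts were low and short transcripts were high. Against the WT P15 mean, the 1500 genes with at most 2203 exonic bases had a median log2 difference of 0.46, and the 1499 genes with at least 9698 exonic bases a median of -0.54. In the other 7 libraries these medians lay between -0.10 and 0.06. The members followed this trend: the difference between the 2 rd10 P18 libraries had a Spearman correlation with exonic length of -0.68 over the 37 members and -0.58 over 11993 genes, which share the same libraries. P18 medians are therefore also given with the length trend removed from every library and without this library.

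**Figure D1:**
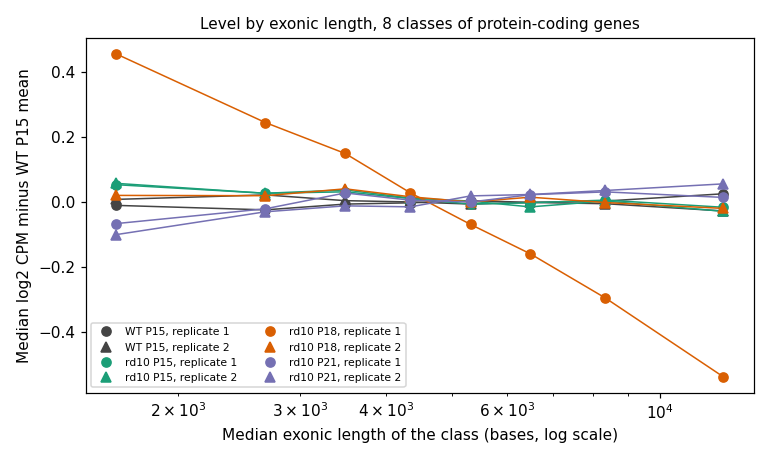
Median log2 CPM minus the WT P15 mean (vertical axis) in 8 classes of protein-coding genes ordered by exonic length in bases (horizontal axis, log scale), with 1 line per library. rd10 P18 replicate 1 falls from 0.46 in the shortest class to -0.54 in the longest, while the other libraries stay between -0.10 and 0.06 in both of these classes.

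In WT P15, BBSome genes were expressed above most IFT genes. Per kilobase of exon, the level of the 37 members had a median of 10.03 CPM per kb and ranged from 1.37 for Ttc30a2 to 54.1 for Arl6. The median was 22.6 CPM per kb for the BBSome, 10.95 for IFT-B2, 7.995 for the chaperonin-like genes, 6.96 for IFT-A and 6.56 for IFT-B1. Arl6 was followed by Ttc8 (30.4 ± 0.59, SD, n = 2), Ift20 (29.8 ± 0.49), Bbs2 (29.4 ± 3.64) and Bbs7 (29.1 ± 1.78), and the differences among these 4 genes were within their spread. At the lower end stood Hspb11 (3.75 ± 0.33), Ttc26 (3.44 ± 0.53) and Ttc30a2 (1.37 ± 0.23), of which Hspb11 and Ttc26 were within each other's spread.

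At P15, the members of rd10 retinas lay close to WT P15. The median log2 fold change was -0.05, beside -0.01 over all 20457 genes tested, and 24 of 37 members were below 0, beside 50.6% of genes. In edgeR's quasi-likelihood test no member passed an adjusted p of 0.05, where 0.24% of genes did, and none was called (0.23% of genes). At an unadjusted p under 0.05, 3 members were lower and 1 was higher (5.72% and 6.61% of genes), and DESeq2 also called 0 members. The libraries of the groups did not overlap for 12 lower members (24.9% of genes) and 5 higher members (24.8% of genes).

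At P18, more members were below WT P15, and in the fit of all 8 libraries the BBSome had the lowest median of the complexes. The median of the 37 members was -0.22, beside 0.01 over all genes, and 30 were below 0, beside 48.9% of genes. It was -0.18 with 32 below 0 when the length trend was removed, and -0.21 with 30 below 0 without rd10 P18 replicate 1. Leaving out the other rd10 P18 library in its place gave -0.17 with 24 below 0. At an unadjusted p under 0.05, 11 members were lower (7.47% of genes) and 2 were higher (9.94% of genes). Bbs7 passed an adjusted p of 0.05, as did 1.89% of genes, and no member was called by edgeR or DESeq2, a call also requiring an absolute log2 fold change over 1 (1.48% of genes). The groups did not overlap for 17 lower members (22.9% of genes) and 4 higher members (24.1% of genes).

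At P21, the members were again below WT P15, with none separated upwards. The median was -0.24, beside 0.00 over all genes, and 31 were below 0, beside 49.7% of genes. The groups did not overlap for 23 lower members (24.2% of genes) and for 0 higher members (24.9% of genes). At an unadjusted p under 0.05, 12 members were lower (4.56% of genes) and 0 were higher (7.25% of genes). One member, Ttc30a2, was called, as were 0.386% of genes.

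**Figure D2:**
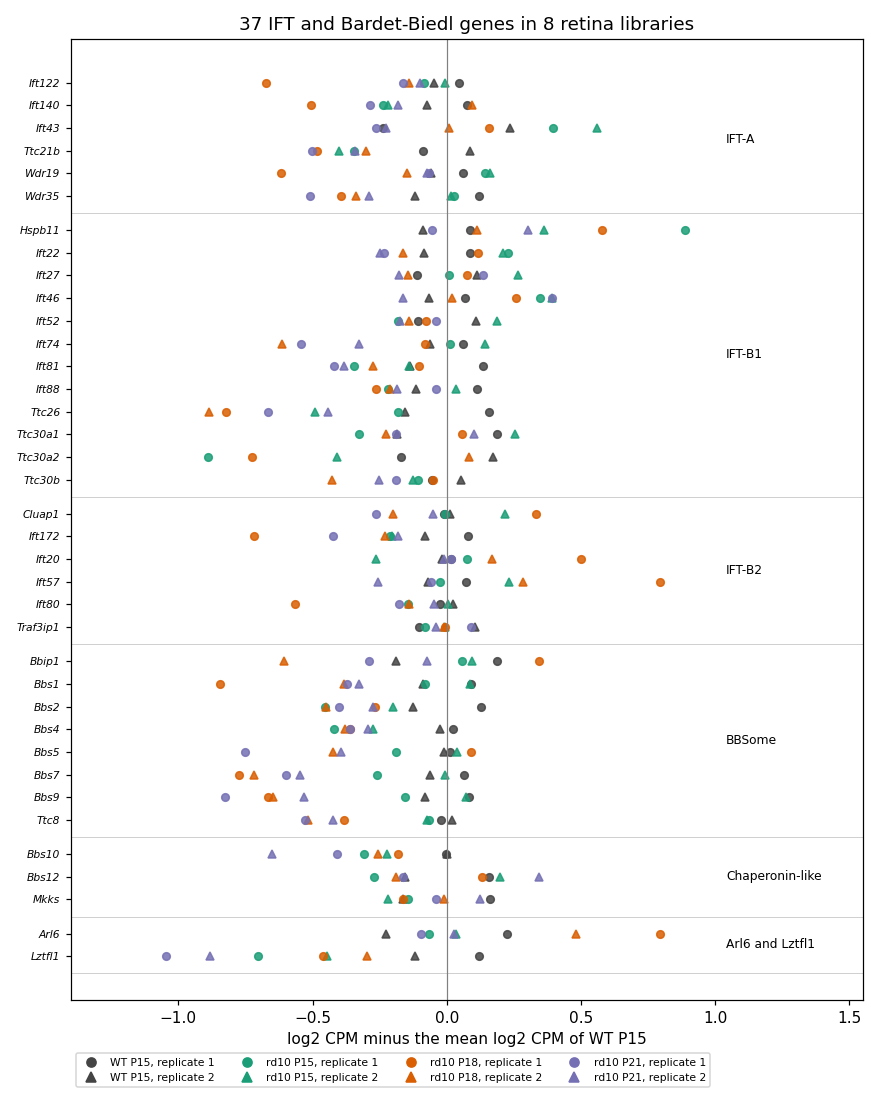
Log2 CPM minus the mean log2 CPM of WT P15 (horizontal axis) for each of the 37 members, grouped by complex, with 1 point per library. The 2 rd10 P21 libraries are not drawn for Ttc30a2, which had 0 counts there. All 8 BBSome genes have a mean below 0 at P18 and P21, and the 2 rd10 P18 libraries lie apart from each other for many IFT genes.

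Among the BBSome genes, all 8 of 8 had a log2 fold change below 0 against WT P15 both at P18 and at P21. Their median was -0.07 at P15, -0.41 at P18 and -0.41 at P21. At P18 it was -0.47 with the length trend removed and -0.49 without rd10 P18 replicate 1, with 8 of 8 below 0 in both. With rd10 P18 replicate 2 left out it was -0.37, and 6 of 8 were below 0, Bbip1 (0.33) and Bbs5 (0.09) being above. An unadjusted p under 0.05 in edgeR was reached by 6 of the 8 at P18 (7.47% of genes were lower at this threshold). At P21 it was reached by 5 (4.56% of genes). All of these were lower.

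Bbs7 encodes a subunit of the BBSome core and was the member with the smallest adjusted p at P18. It stood at 164 and 150 CPM in WT P15, 131 and 156 CPM in rd10 P15, 91.7 and 95.2 CPM in rd10 P18, and 103 and 107 CPM in rd10 P21. All 4 libraries from P18 and P21 lay below the 4 libraries from P15. Against WT P15, the log2 fold change at P18 was -0.75 ± 0.14 (SE), with an edgeR adjusted p of 0.0372. Across 15 alternatives the adjusted p ranged from 0.000667 to 0.263 and was under 0.05 in 6. It was 0.0206 with the length trend removed (log2 fold change -0.70) and 0.041 without rd10 P18 replicate 1 (-0.72). The adjusted p exceeded 0.05 with only the 4 libraries compared (0.131), library size as the only scaling (0.0501) or the replicate number as a block (0.0633). It also exceeded 0.05 when either library of WT P15, rd10 P15 or rd10 P21 was left out. At P21 the log2 fold change was -0.57 ± 0.14, with an adjusted p of 0.128 (range over the alternatives, 0.0264 to 0.639).

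Bbs9, another core subunit, gave a like order of groups. It was at 125 and 112 CPM in WT P15, 106 and 124 CPM in rd10 P15, 74.6 and 75.6 CPM in rd10 P18, and 66.7 and 81.9 CPM in rd10 P21. Again the later libraries lay below all those of P15. Against WT P15, the log2 fold change was -0.66 ± 0.15 at P18 (adjusted p = 0.076, range 0.0131 to 0.423; -0.65 without rd10 P18 replicate 1) and -0.67 ± 0.15 at P21 (adjusted p = 0.118, range 0.0162 to 0.628). In DESeq2, Bbs9 was under 0.05 in both comparisons (adjusted p = 0.0131 and 0.0162).

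Bbs1, which binds Arl6 at the membrane, was at 176 and 155 CPM in WT P15, 156 and 175 CPM in rd10 P15, 91.8 and 127 CPM in rd10 P18, and 128 and 132 CPM in rd10 P21. At P18 the log2 fold change was -0.60 ± 0.17 (adjusted p = 0.129, range 0.00367 to 0.534), and -0.38 without rd10 P18 replicate 1, the lowest library. Here the size of the P18 difference rested on that library.

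Bbs4 had the lowest P15 log2 fold change of the BBSome genes. It was at 145 and 141 CPM in WT P15, 107 and 118 CPM in rd10 P15, 111 and 110 CPM in rd10 P18, and 112 and 117 CPM in rd10 P21. All 6 rd10 libraries lay below both WT libraries and within a narrow range. The log2 fold change at P15 was -0.35 ± 0.12 (adjusted p = 0.294, range 0.0835 to 0.807). Ttc8, the gene of BBS8, lay at 113 and 117 CPM in WT P15, 110 and 109 CPM in rd10 P15, 88.2 and 80.4 CPM in rd10 P18, and 79.8 and 85.8 CPM in rd10 P21. As for Bbs7, the libraries of P18 and P21 were all below those of P15.

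**Figure D3:**
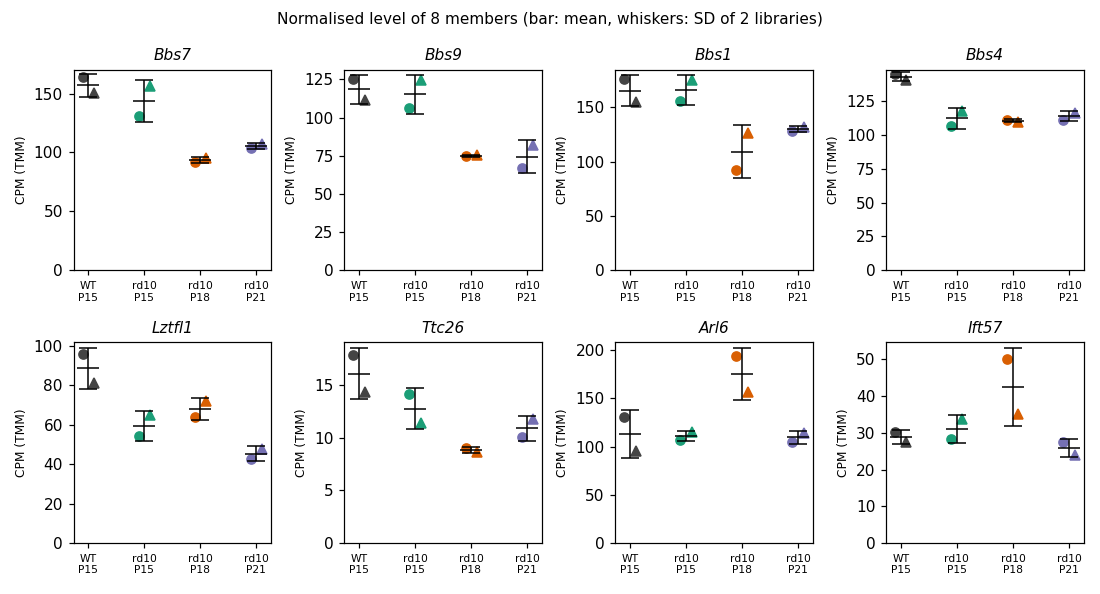
CPM scaled by TMM factors (vertical axis, from 0) in the 4 groups for 8 members, with circles for replicate 1 and triangles for replicate 2. The bar is the mean and the whiskers are the SD of 2 libraries. Bbs7 and Bbs9 are lower at P18 and P21 than at P15, Lztfl1 is lowest at P21, and Arl6 and Ift57 are highest at P18.

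Lztfl1 and Arl6, which act on the BBSome, differed from each other in course. Lztfl1 was at 95.9 and 81.4 CPM in WT P15, 54.2 and 64.8 CPM in rd10 P15, 64.2 and 71.9 CPM in rd10 P18, and 42.8 and 47.9 CPM in rd10 P21. All rd10 libraries lay below both WT libraries, and the P21 libraries were the lowest. At P15 the log2 fold change was -0.58 ± 0.16 (adjusted p = 0.182, range 0.0614 to 0.71). At P21 it was -0.97 ± 0.16 with an adjusted p of 0.052, just over the threshold, and the range over the alternatives was 0.000172 to 0.328. It was under 0.05 in 6 of 15 alternatives. With the length trend removed, Lztfl1 was called at P21 (log2 fold change -1.004, adjusted p = 0.0279), and without rd10 P18 replicate 1 or 2 the adjusted p was 0.0132 or 0.0137. Gm17200, which overlaps 4.39% of its exonic bases, had at most 3 counts in a library.

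Arl6 was at 131 and 95.8 CPM in WT P15, 107 and 115 CPM in rd10 P15, 194 and 157 CPM in rd10 P18, and 105 and 114 CPM in rd10 P21. The P18 libraries stood above the other 6. The log2 fold change at P18 was 0.63 ± 0.18 against WT P15 (adjusted p = 0.128, range 0.0208 to 0.448) and 0.66 ± 0.18 against rd10 P15 (adjusted p = 0.185, range 0.0218 to 0.575). Against WT P15 it was 0.47 without rd10 P18 replicate 1 and 0.46 with the length trend removed. Arl6 has 2098 exonic bases, in the range of short transcripts that were high in that library.

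The chaperonin-like genes Mkks, Bbs10 and Bbs12 had log2 fold changes against WT P15 with a median of -0.19 at P15, -0.09 at P18 and 0.04 at P21, and none passed the test. The P18 median moved to -0.18 with the length trend removed and to -0.20 without rd10 P18 replicate 1, close to the P15 value. Mkks was the member with the largest upward difference between rd10 P15 and rd10 P21 among those without overlap. It was at 23.2 and 22.0 CPM in rd10 P15 and at 24.9 and 27.97 CPM in rd10 P21, a log2 fold change of 0.23 ± 0.18 (adjusted p = 0.653, range 0.455 to 0.943). Of its exonic bases, 29.3% overlap other genes: Slx4ip on the other strand, and AL731706.1 and AL731706.2 on the same strand. Over the libraries, Slx4ip was at 5.37 to 24.2 CPM, AL731706.1 at 0.03 to 13.3 CPM and AL731706.2 at 5.42 to 10.6 CPM. The library protocol does not mark strand, and strand would not separate Mkks from the genes on its own strand. Reads of the overlapping part therefore cannot be assigned among these genes.

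The IFT-A genes encode the complex that serves return transport and the import of membrane proteins. Their median log2 fold change against WT P15 was -0.01 at P15, -0.37 at P18 and -0.25 at P21. The P18 value moved to -0.17 with the length trend removed and to -0.15 without rd10 P18 replicate 1. The P21 value was -0.22 with the trend removed, with 6 of 6 genes below 0.

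Ift43, a small IFT-A subunit, was at 21.7 and 30.1 CPM in WT P15, 33.6 and 37.6 CPM in rd10 P15, 28.5 and 25.7 CPM in rd10 P18, and 21.3 and 21.8 CPM in rd10 P21. Within the rd10 libraries it was highest at P15 and lowest at P21, with no overlap. The log2 fold change was 0.46 ± 0.19 from WT P15 to rd10 P15 (adjusted p = 0.386, range 0.239 to 0.888) and -0.73 ± 0.19 from rd10 P15 to rd10 P21 (adjusted p = 0.182, range 0.0631 to 0.629). Ttc21b, the gene of IFT139, was lower than WT P15 (40.5 and 45.7 CPM) in all rd10 libraries, at 33.8 and 32.6 CPM in rd10 P15, 30.7 and 34.9 CPM in rd10 P18, and 30.4 and 33.98 CPM in rd10 P21. At P15 its log2 fold change was -0.38 ± 0.15 (adjusted p = 0.373, range 0.188 to 0.746). Wdr19, the gene of IFT144, was at 36.8 and 51.1 CPM in rd10 P18 and 54.1 and 53.7 CPM in rd10 P21. The difference of 0.30 ± 0.17 (adjusted p = 0.543, range 0.0278 to 0.966) was 0.08 without rd10 P18 replicate 1.

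The IFT-B1 genes encode the core of the trains that move outward. Their median was -0.00 at P15, -0.15 at P18 and -0.17 at P21, and at P18 it was -0.19 both with the length trend removed and without rd10 P18 replicate 1. Ttc26, the gene of IFT56, had the largest downward difference of all members at P18. It was at 17.8 and 14.3 CPM in WT P15, 14.1 and 11.4 CPM in rd10 P15, 9.01 and 8.63 CPM in rd10 P18, and 10.05 and 11.7 CPM in rd10 P21. The rd10 P18 libraries were the lowest and close to each other. The log2 fold change at P18 was -0.87 ± 0.23 (adjusted p = 0.103, range 0.0397 to 0.508), and -0.90 without rd10 P18 replicate 1. From P18 to P21 it was 0.30 ± 0.23 (adjusted p = 0.628, range 0.607 to 0.928).

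Of the 12 IFT-B1 genes, 4 were lower at P15 without overlap (24.9% of genes) and 3 were higher (24.8% of genes), near the shares over all genes. The 3 higher genes were Hspb11, Ift46 and Ift22. Hspb11, the gene of IFT25, was at 8.24 and 7.28 CPM in WT P15, 14.4 and 9.98 CPM in rd10 P15, 11.6 and 8.38 CPM in rd10 P18, and 7.45 and 9.58 CPM in rd10 P21. The difference at P15 was 0.65 ± 0.29 on the log2 scale (adjusted p = 0.413, range 0.244 to 0.87). At P18 it was 0.36 ± 0.29 (adjusted p = 0.56, range 0.285 to 0.937), and 0.11 without rd10 P18 replicate 1. The spread between its rd10 P15 libraries was wide. Ift46 was at 33.1 and 30.2 CPM in WT P15 and 40.2 and 41.5 CPM in rd10 P15 (log2 fold change 0.37 ± 0.20, adjusted p = 0.522, range 0.193 to 0.851). Ift22, a small GTPase-like subunit, was at 49.8 and 44.2 CPM in WT P15 and 55.0 and 54.3 CPM in rd10 P15 (0.22 ± 0.15, adjusted p = 0.617, range 0.377 to 0.898).

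Ttc30a1, Ttc30a2 and Ttc30b are paralogs in 1 cluster on chromosome 2 that encode the IFT70 subunit. Ttc30a2 was the member called at P21. It had 79 and 115 counts in WT P15, 55 and 70 counts in rd10 P15, 66 and 111 counts in rd10 P18, and 0 counts in both rd10 P21 libraries. Both P21 libraries thus lay below all 6 others. With a floor of 3 counts over the rd10 P21 group, its level there was lower by at least 70.4-fold relative to WT P15, at least 44.7-fold relative to rd10 P15 and at least 58.0-fold relative to rd10 P18. The edgeR adjusted p was 0.0268 against WT P15 (range 1.49e-06 to 0.0779), 0.0207 against rd10 P15 (range 1.22e-05 to 0.0783) and 0.0663 against rd10 P18 (range 1.25e-05 to 0.573). Against WT P15 the call was lost without WT P15 replicate 1 (0.0716) or 2 (0.0622), rd10 P15 replicate 1 (0.0636) or 2 (0.0661), or rd10 P21 replicate 1 (0.0779). Against rd10 P15 it was lost without rd10 P15 replicate 1 (0.0765) or 2 (0.073) or rd10 P21 replicate 1 (0.0783). Against rd10 P18 it was made without rd10 P18 replicate 1 (0.0157) or 2 (0.00241). At P15 the log2 fold change was -0.66 ± 0.51 (adjusted p = 0.67, range 0.453 to 0.94).

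The neighbouring paralogs were counted in every library. Ttc30a1 had 453 and 399 counts in WT P15 and 451 and 452 in rd10 P21, and Ttc30b had 694 and 853 counts in WT P15 and 818 and 638 in rd10 P21. Summed over the 3 genes, they reached 45.3 and 44.3 CPM in WT P15, 38.2 and 44.4 CPM in rd10 P15, 43.0 and 35.8 CPM in rd10 P18, and 36.2 and 38.1 CPM in rd10 P21. The sum at P21 was below both WT libraries and within the range of the rd10 P15 and P18 libraries. Reads can be shared among these genes: the coding sequences of Ttc30a1 and Ttc30a2 differ at 97 of 1992 bases, and of all 100-base windows of the Ttc30a2 transcript 39.8% also occur in a paralog. The value of Ttc30a2 is therefore uncertain. At P21, 3 genes had 0 counts in both libraries and at least 10 in each of the other 6 (Fam177a, Fam183b and Ttc30a2), whereas 8 genes were at 0 in this way in WT P15, 5 in rd10 P15 and 2 in rd10 P18 alone. With at least 50 counts in each of the other 6 libraries, Fam177a and Ttc30a2 remained at P21 and 0 genes in the other groups. Whether counting differed for these libraries was not tested. A stretch of 60 coding bases (559 to 618 from the start codon, from GENCODE M21 transcripts) is shown because, of all stretches of that length, it holds the most differences between Ttc30a1 and Ttc30a2 (19 bases). Capitals mark bases that differ among the 3 genes.
Ttc30a1: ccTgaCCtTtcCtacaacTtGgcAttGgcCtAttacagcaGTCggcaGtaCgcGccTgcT
Ttc30a2: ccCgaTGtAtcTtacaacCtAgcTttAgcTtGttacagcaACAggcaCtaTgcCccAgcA
Ttc30b: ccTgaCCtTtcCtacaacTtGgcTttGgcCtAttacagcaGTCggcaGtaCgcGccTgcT

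**Figure D4:**
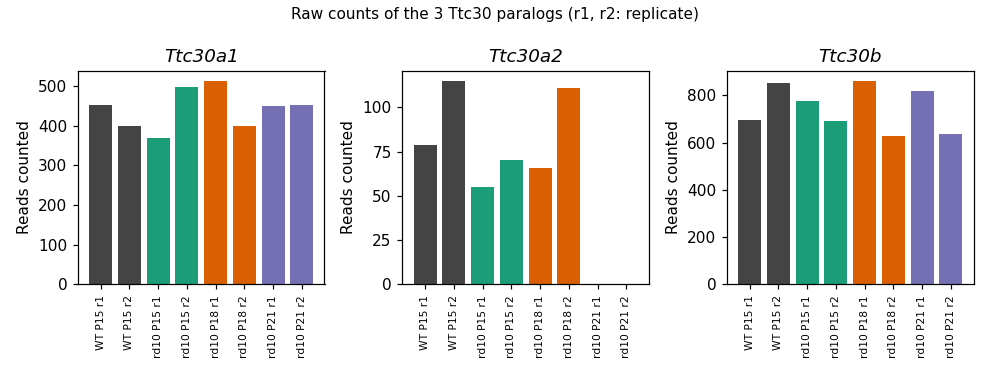
Reads counted (vertical axis, from 0, a separate scale for each gene) in the 8 libraries for the 3 Ttc30 paralogs, coloured by group. Ttc30a2 has 0 counts in both rd10 P21 libraries and between 55 and 115 in the others, while Ttc30a1 and Ttc30b are counted in all 8.

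The IFT-B2 genes encode the peripheral part of the outward trains, which contacts kinesin-2. Their median was -0.06 at P15, 0.04 at P18 and -0.13 at P21, and the P18 value changed sign, to -0.07 with the length trend removed and to -0.08 without rd10 P18 replicate 1. Ift57 and Ift20 stood highest at P18. Ift57 was at 30.3 and 27.4 CPM in WT P15, 28.3 and 33.8 CPM in rd10 P15, 50.02 and 35.1 CPM in rd10 P18, and 27.6 and 24.1 CPM in rd10 P21. Gm15518, an antisense gene that overlaps 7.86% of the exonic bases of Ift57, had 0 counts in every library. Ift57 had its high value in rd10 P18 replicate 1. Its log2 fold change at P18 was 0.56 ± 0.21 against WT P15 (adjusted p = 0.218, range 0.0229 to 0.566) and 0.28 without that library. Between rd10 P18 and rd10 P21 it was -0.72 ± 0.21 (adjusted p = 0.429, range 0.012 to 0.862) and -0.44 without that library. Against rd10 P15 it was 0.45 ± 0.21 (adjusted p = 0.404, range 0.0478 to 0.802) and 0.17 without it. Ift20, which also works at the Golgi, was at 45.9 and 44.9 CPM in WT P15, 64.2 and 51.0 CPM in rd10 P18, and 45.8 and 45.1 CPM in rd10 P21. The P18 log2 fold change of 0.34 ± 0.17 (adjusted p = 0.348, range 0.0792 to 0.715) became 0.17 without the same library.

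Comparisons among the rd10 ages share libraries with those above. From P15 to P18, the median of the 37 members was -0.12 with 27 below 0 (48.8% of genes), -0.14 with the length trend removed and -0.17 without rd10 P18 replicate 1. None was called (0.591% of genes), and DESeq2 also called 0. At an unadjusted p under 0.05, 7 were lower (5.47% of genes) and 2 were higher (7.43% of genes), and the groups did not overlap for 13 lower (20.4% of genes) and 3 higher members (21.9% of genes). Bbs7 and Bbs9 were the largest downward differences without overlap, at -0.62 ± 0.14 (adjusted p = 0.115, range 0.014 to 0.564) and -0.62 ± 0.15 (adjusted p = 0.151, range 0.0373 to 0.601), and at -0.59 and -0.61 without rd10 P18 replicate 1. From P15 to P21, the median was -0.22 with 32 below 0 (48.7% of genes), and Ttc30a2 was called (0.401% of genes). At an unadjusted p under 0.05, 10 were lower (5.44% of genes) and 0 were higher (7.39% of genes), and the groups did not overlap for 20 lower (25.5% of genes) and 1 higher member (26.0% of genes). From P18 to P21, the median was -0.01 with 20 below 0 (50.1% of genes), and 0.03 with 15 below 0 without rd10 P18 replicate 1. With the trend removed it was -0.03. No member was called (0.0196% of genes), with 1 called by DESeq2. At an unadjusted p under 0.05, 4 were lower (6.04% of genes) and 0 were higher (4.81% of genes).

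Photoreceptor markers and other ciliary genes were set beside the members. The 12 rod markers had a median log2 fold change against WT P15 of -0.48 at P15, -0.78 at P18 and -1.05 at P21, with 12 of 12 below 0 at P18 and P21. The P18 median was -0.78 with the length trend removed and -0.84 without rd10 P18 replicate 1. Their summed level was 48383 to 59270 CPM in WT P15, 35771 to 38236 CPM in rd10 P15, 31069 to 31915 CPM in rd10 P18 and 22538 to 29479 CPM in rd10 P21, and none was at 0. The BBSome medians were thus nearer to 0 than the rod medians in all 3 comparisons, and the difference was not tested. The 8 cone markers had medians of -0.72 at P15 and -0.64 at P18, with 8 of 8 below 0 in both, and of -0.01 at P21, and the P18 median was -0.66 with the trend removed and -0.67 without that library. Their summed level was 1120 to 1465 CPM in WT P15, 651 to 751 CPM in rd10 P15, 898 to 905 CPM in rd10 P18 and 1158 to 1257 CPM in rd10 P21. Of the cone markers, Arr3, the cone arrestin, was called lower at P15 (log2 fold change -1.71, adjusted p = 0.015) and at P18 (-1.39, adjusted p = 0.015). The 10 microglial markers had medians of 0.45, 2.21 and 2.36 (at P18, 2.03 with the trend removed and 2.08 without that library), and their summed level went from 84.0 to 97.2 CPM in WT P15 to 238 to 475 CPM in rd10 P21. An adjusted p of 0.05 was passed by 3 of the 12 rod markers at P18 and 3 at P21, and by 4 and 2 of the microglial markers. The 10 reactive Müller glia markers had medians of -0.70, 3.37 (3.26 and 3.44 under these alternatives) and 1.78, with 9 and 6 past that threshold at P18 and P21. The summed level of 9 pigment epithelium markers was 44.2 to 176 CPM in WT P15, 271 to 312 CPM in rd10 P15 and at most 44.8 CPM in the later libraries. The part of these cell types in the members' differences was not tested.

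The axoneme and photoreceptor cilium list, with genes such as Rp1l1 that act at the connecting cilium and outer segment axoneme, had medians of -0.36 at P15, -0.66 at P18 and -0.47 at P21 over 15 genes. The P18 median was -0.49, with 12 of 15 below 0, when the length trend was removed and -0.47 without rd10 P18 replicate 1, close to the P21 value. Rp1l1 was called lower at P18 (log2 fold change -1.004, adjusted p = 0.047), and without rd10 P18 replicate 1, which gave -0.77 (adjusted p = 0.046), it was under the fold required for a call. Over 16 motor genes, which encode kinesin-2 and dynein-2 subunits, the medians were 0.07, -0.02 and -0.13, with -0.12 at P18 when the length trend was removed and -0.11 when this library was left out, and none passed an adjusted p of 0.05. The 21 transition zone genes had medians of -0.01, -0.10 and -0.04, and of -0.03 and -0.14 at P18 under the same alternatives, with Cc2d2a lower at P18 (-0.97, adjusted p = 0.022, and 0.018 without rd10 P18 replicate 1). The 19 genes for lipidated cargo and small GTPases had medians of -0.14, -0.13 and -0.12, and of -0.14 and -0.15 at P18 under the same alternatives, with Arl13b, a GTPase of the ciliary membrane, lower at P18 (-0.75, adjusted p = 0.036, and 0.046 without the same library). The 6 tested genes of the RFX and FOXJ1 transcription factors had medians of 0.08, -0.15 and 0.28, with 4 of 6 below 0 at P18. Under the same alternatives the P18 median was -0.07 and 0.04. Of these genes, Rfx2 was called higher at P18 (7.33 ± 1.27 CPM in WT P15, 23.7 ± 2.30 CPM in rd10 P18, log2 fold change 1.69, adjusted p = 0.018, and 1.79 without rd10 P18 replicate 1). Its log2 fold change was -0.88 at P15 and 1.36 at P21 (adjusted p = 0.058).

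**Figure D5:**
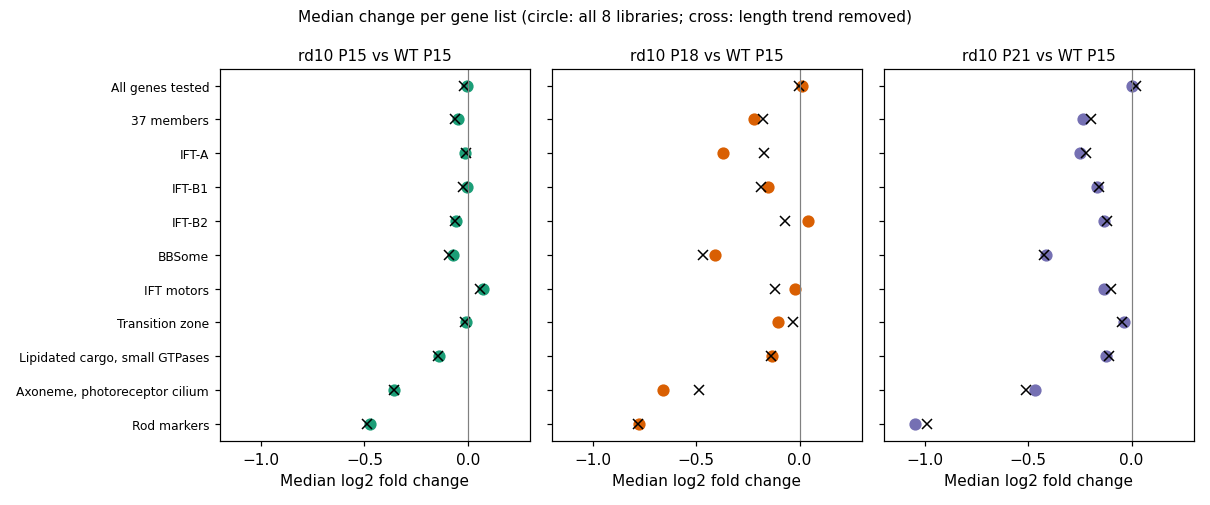
Median log2 fold change (horizontal axis) of the members, their complexes, 4 further ciliary lists and the rod markers against WT P15 in 3 panels by age. Circles are the fit of all 8 libraries and crosses the fit with the exonic length trend removed. The rod markers lie furthest below 0 in each panel. The BBSome lies at -0.41 at P18 and P21, its order with the axoneme list at P18 turning without rd10 P18 replicate 1 (-0.49 and -0.47), and all genes tested within 0.02 of 0.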

How the data were processed

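Poly(A) RNA from whole retinas was sequenced by the authors, whose processing notes name HISAT2; its version, the genome build, the annotation and the counting program were not given in the sources used here. The deposited values were raw read counts per gene, with no normalization. The table held 57010 identifiers, of which 4929 are not in GENCODE M21 (GRCm38), the source of symbols, positions and exonic lengths. The library protocol does not mark strand.

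Counts were fitted over all 8 libraries and 4 groups in R 4.3.3 with edgeR 4.0.16 (filterByExpr with a minimum count of 10, TMM, robust quasi-likelihood test, Benjamini-Hochberg adjustment over 20457 genes); a call needed both an adjusted p below 0.05 and a log2 fold change beyond 1 either way. Alternatives were DESeq2 1.42.0, RLE size factors, scaling to library size alone, omission of the filter, only the 4 libraries compared, a replicate block, leaving out each library and, added after seeing the data, removal by lowess (span 0.3) of each library's trend with exonic length. The scripts were tested on simulated data. Named with full statistics were called members and, among members whose groups did not overlap, the 4 with the largest difference each way against WT P15 and the 2 each way among rd10 ages. Members and lists were chosen with earlier results of these data known. The labels name no difference between replicates beyond separate retinas. In rd10 P18 and rd10 P21, however, replicate 1 had high and replicate 2 low Y-linked counts. The p-values measure the spread between these libraries, which in these groups includes any difference by sex. Replicate numbers paired no samples: correlations of same-numbered deviations were -0.025 to 0.059. Permuting 2 against 2 libraries cannot go below p = 0.333, so no exact test was run. Figures were drawn with matplotlib.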

Additional observations from a re-analysis of the deposited data

How the results depend on the processing

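No single member named with full statistics changed the sign of its log2 fold change under any alternative run. These members were named for groups that did not overlap, so leaving out 1 library could hardly reverse the sign. The unchanged signs are therefore no measure of stability. The median of all members changed sign in 2 cases, to 0.014 at P15 against WT P15 without rd10 P15 replicate 1 and to 0.033 from P18 to P21 without rd10 P18 replicate 1. Of the values for all members, 254 stayed within the spread between replicates or 1.5 times the count, and 22 did not; of the values for single members, 416 kept their side of the threshold, 32 crossed to under it and 17 crossed to over it. Against WT P15 at P18, 1 member passed without a fold threshold in place of 0. With the length trend removed, 2 members were called at P21 against WT P15 in place of 1. From P18 to P21, DESeq2 called 1 member in place of 0, as did the fit with no filter. With library size as the only scaling, the median of all genes shifted to 0.13 at P18 and to 0.11 at P21, and the members' medians were -0.095 and -0.124 there and -0.042 from P15 to P18.

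Leaving out 1 library at a time, the members' median against WT P15 ranged from -0.147 to 0.014 (rd10 P15), -0.249 to -0.171 (rd10 P18) and -0.307 to -0.198 (rd10 P21). Among rd10 ages it ranged from -0.213 to -0.039 (P15 to P18), -0.253 to -0.131 (P15 to P21) and -0.109 to 0.033 (P18 to P21). Members called ranged from 0 to 1 at P21 against WT P15, from 0 to 1 from P15 to P21 and from 0 to 1 from P18 to P21. With the replicate number as a block, 0 members were called in rd10 P18 and 1 in rd10 P21 relative to WT P15, with medians of -0.22 and -0.24; the samples share only a number, and Bbs7 at P18 lost its adjusted p under 0.05 (0.0633). The causes were not tested. Ttc30a2, with at most 115 counts in a library, was the least deeply counted member.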
